A study of Mus musculus with 15 samples.

Results

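The cocaine-specific 5hmC enhancer intervals are stretches of the mouse genome that the study's authors deposited as a list named for 5-hydroxymethylcytosine (5hmC), enhancers and cocaine. The intervals described here lie on chromosomes 1 to 19, more than 1000 bp (start minus end of the nearest interval) from every interval of the matching saline-specific list. This rule kept 10049 of the 10575 cocaine-specific intervals. It left out 141 on chromosome X and 385 that lay closer to a saline-specific interval. The 2 lists together hold 21130 intervals. Positions are first and last base, taken as mm9.

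The libraries came from the nucleus accumbens of C57BL/6 mice labelled cocaine, with 7 daily intraperitoneal injections at 20 mg/kg, or saline. The labels repeat the cocaine protocol on every library, so each group was taken from its source name. 5hmC capture sequencing gave 3 libraries after cocaine and 3 after saline. Acetylation of histone H3 at lysine 27 (H3K27ac) was profiled by ChIP-seq in another 3 cocaine and 3 saline libraries, with 1 input library per treatment. Normalised reads in the deposited tables summed to between 83304 and 86815 per cocaine library and 70119 to 71789 per saline library for 5hmC. For H3K27ac they summed to 31666082 to 31747395 per cocaine library and 31726265 to 32720046 per saline library. The tables hold selected regions, so these sums are not sequencing depths. Whether each library stands for its own animals is not stated, so p-values reflect how far these libraries vary, and that variation may be technical.

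5hmC is made by the Tet enzymes, which oxidise 5-methylcytosine, and it is abundant in neurons, where it is found in gene bodies and at enhancers. Enhancers are distal sequences that raise transcription of their target genes, and active ones carry H3K27ac. The nucleus accumbens lies in the ventral striatum and takes part in reward, and it is made up largely of medium spiny neurons, and repeated cocaine changes its gene expression. The tissue holds several cell types, and a bulk library cannot tell a change in cell numbers from a change in the mark per cell.

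The intervals were short. They were 200 to 3400 bp wide, with a median of 200 bp and a mean of 332 bp, and together they spanned 3.33 Mb. All starts and ends lay on a grid of 200 bp. A single grid step was the commonest width, held by 7248 intervals (72.1%), followed by 400 bp in 1580 (15.7%). Widths of 1000 bp or more were held by 543 intervals (5.40%), and 44 (0.438%) exceeded 2000 bp. The saline-specific list, cut by the same distance from cocaine-specific intervals, held 10046 intervals with the same median of 200 bp and a mean of 323 bp. In that list 74.0% of intervals were 200 bp wide and 5.11% reached 1000 bp.

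The 10 widest intervals ended at a width of 3000 bp, and no further interval reached it. The 2 that spanned 3400 bp were chr2:49398001-49401400 and chr9:69146401-69149800. They lay 53400 and 13000 bases from the nearest saline-specific interval. Of the 10, chr2:163043001-163046000 overlapped a region of the 5hmC table, and none overlapped an H3K27ac region. The nearest approach to H3K27ac among them was chr5:36966401-36969400, whose end lay 601 bp from a listed region.

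Spacing was wide and uneven. The median number of bases to the next interval on the chromosome was 79100, and the middle 50% of gaps ran from 26800 to 207200 bases. Gaps of at most 5 kb separated 571 of 10030 neighbouring pairs (5.69%), and gaps of over 1 Mb separated 460 (4.59%). No gap was shorter than 1600 bases, the length of 58 gaps, and the saline-specific list had the same shortest gap. Between the lists no such minimum held, since 93 cocaine-specific intervals directly adjoined a saline-specific one and none overlapped one. The longest stretch without an interval was chr15:13138801-25309000, which spans 12.2 Mb.

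**Figure D1:**
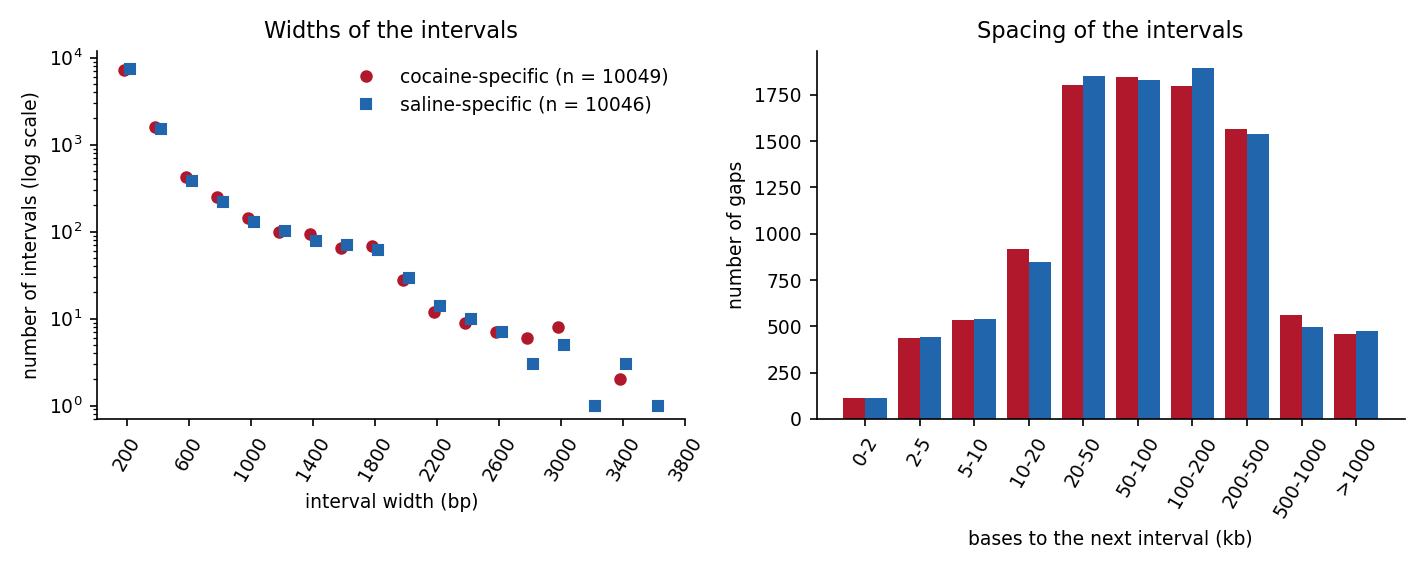
Left, the number of intervals (log scale) at each width in bp. Right, the number of gaps in each class of bases to the next interval, in kb. Red marks stand for the 10049 cocaine-specific intervals and blue marks for the 10046 saline-specific intervals kept by the same distance. In both lists 200 bp is the commonest width and the median gap lies between 50 and 100 kb.

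The distance of 1000 bp did not fall at a break in the counts, which were uneven closer in. Directly adjoining a saline-specific interval were 93 intervals, with 58 at 200 bases, 84 at 400 bases and 71 at 600 bases. The number of intervals was 79 at 800 bases, 85 at 1000 bases and 94 at 1200 bases. Those at exactly 1000 bases, such as chr1:64509801-64510000, chr1:66883601-66883800 and chr1:180515001-180515200, were kept. Those at 800 bases, such as chr1:36032601-36032800, chr1:37980201-37980400 and chr1:94167201-94167400, were left out. The median interval that was kept lay 33600 bases from the nearest saline-specific one. Within 10 kb of a saline-specific interval lay 2111 (21.0%), and 1971 (19.6%) lay farther than 100 kb.

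Some intervals were grouped. The densest 100 kb held 10 of them, over chr10:107644801-107721800, with 2 saline-specific intervals in the same stretch and no listed 5hmC or H3K27ac region. The next places by rule held 7 intervals each. They were chr1:43548601-43599400, chr2:109784601-109884600, chr4:123036001-123124400 and chr5:107649001-107725400. The place on chromosome 1 held 1 listed 5hmC region, lower after cocaine, and no H3K27ac region. The place on chromosome 2 held no 5hmC region and 1 H3K27ac region, which was not called by limma. The place on chromosome 5 held 3 listed 5hmC regions, 2 of them higher after cocaine, and 2 H3K27ac regions, both called by limma. The place on chromosome 4 held 1 listed 5hmC region, higher after cocaine, and 4 H3K27ac regions, 1 of them called. In the whole H3K27ac table limma called 13% of the regions. The listed regions at these places lay between the intervals and overlapped none of them. In contrast to these groups, 4414 intervals (43.9%) had no other interval in the 100 kb that began at their start.

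All 19 chromosomes carried intervals. Counts ran between 297 on chromosome 19 and 879 on chromosome 2. Per Mb between the first and last listed H3K27ac region of a chromosome, the density was 4.18 over all chromosomes, lowest on chromosome 14 (3.18) and highest on chromosome 19 (5.12). Chromosomes 11, 10 and 9 followed with 5.11, 5.05 and 5.02 per Mb. The saline-specific list had 4.18 intervals per Mb, with its highest density on chromosome 11 (5.83). The number of cocaine-specific intervals per saline-specific interval was lowest on chromosome 11 (0.876) and highest on chromosome 3 (1.19). Interval lists carry no spread between libraries, so these ratios have no error and were not tested.

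**Figure D2:**
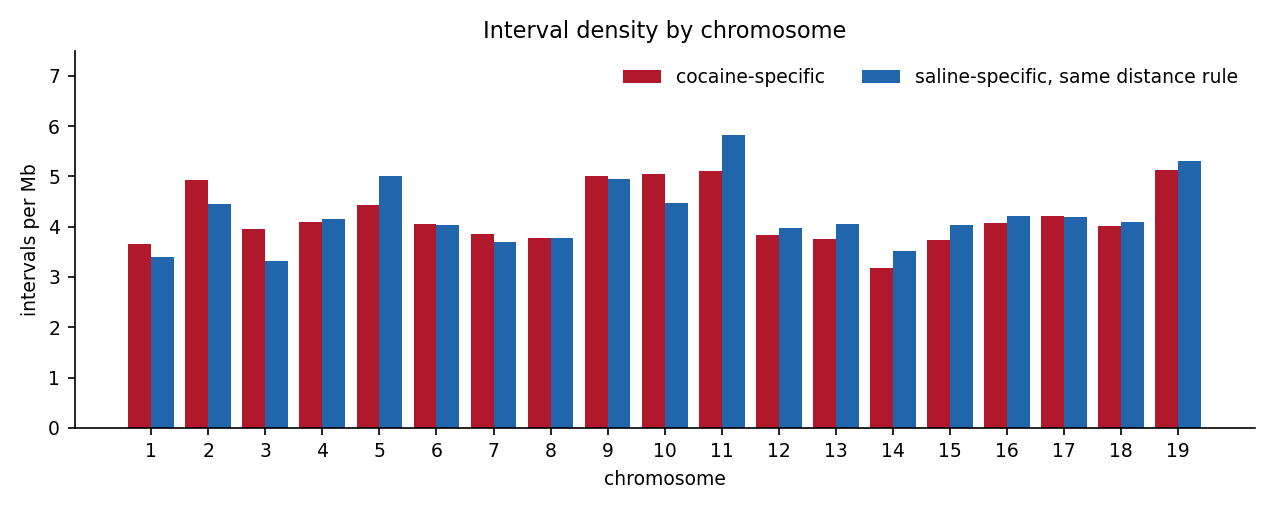
Intervals per Mb on chromosomes 1 to 19, cocaine-specific in red and saline-specific in blue. The cocaine-specific bars lie between 3.18 and 5.12 per Mb, and chromosome 11 has the lowest ratio of cocaine-specific to saline-specific intervals.

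Levels of 5hmC at the intervals were read from the authors' table of 5hmC regions, which lists 11748 regions selected for a difference between the groups. Of the 10049 intervals, 173 (1.72%) overlapped a listed region by 1 bp or more, each a different one of the 173 regions concerned. The other 9876 have no 5hmC value. Of the 173 regions, 153 (88.4%) were higher and 20 were lower after cocaine in the authors' deposited table, where 58.5% of all listed regions were higher and 41.5% lower. The list carries the name of the same mark and could rest on these libraries, so this share describes how the files relate and is no independent support.

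Regions higher after cocaine lay at a low level in all libraries. Across the 153, the medians were 10.6, 9.88 and 10.8 normalised reads in cocaine libraries 1 to 3, against 2.69, 3.09 and 2.96 in saline libraries 1 to 3. The lowest value was 4.49 and the highest 30.6 among cocaine libraries, against 0 and 17.8 among saline libraries. The 20 regions lower after cocaine had medians of 4.32, 3.70 and 3.59 in the cocaine libraries, against 10.8, 12.9 and 13.3 in the saline libraries. Libraries of the same treatment had like medians in both sets. Library numbers for 5hmC are only the position in the table.

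**Figure D3:**
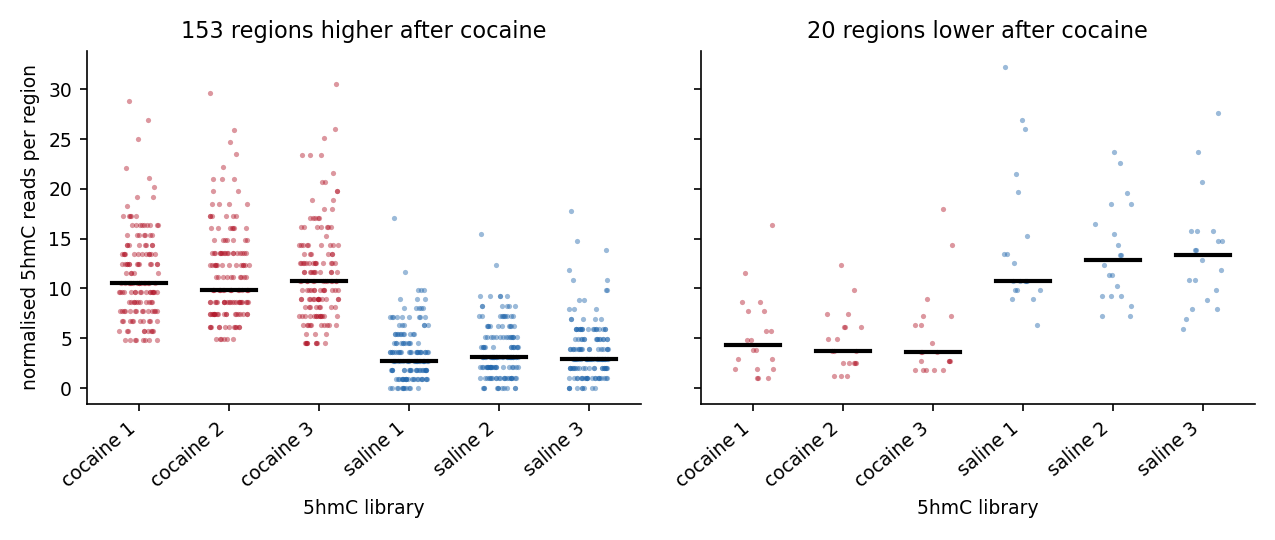
Normalised 5hmC reads per region in each of the 3 cocaine (red) and 3 saline (blue) libraries, with a point for each region and a black bar at the library's median. In the 153 regions higher after cocaine the cocaine medians lie between 9.88 and 10.8 and the saline medians between 2.69 and 3.09. In the 20 lower regions the order is the other way round.

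The regions at the intervals had more reads and a smaller fold than the table as a whole. For regions higher after cocaine at the intervals, the median group means were 10.8 normalised reads after cocaine and 3.18 after saline, and the median log2 fold change in the authors' deposited table was 1.76. Over all 6874 listed regions of that direction, the medians were 9.0 in cocaine and 2.26 in saline, with a log2 fold change of 2.01. Taken as multiples of the smallest step among each library's low values, the normalised values came to a median of 8 to 11 reads per region in the cocaine libraries and 3 to 4 in the saline libraries.

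In sum, the 173 regions took 2.20%, 2.13% and 2.22% of each cocaine library's reads in the table, against 1.16%, 1.19% and 1.22% of each saline library's. The means were 2.18% ± 0.0437 after cocaine and 1.19% ± 0.0314 after saline (SD over 3 libraries per group). The libraries of the groups did not overlap. The regions had been selected on these same libraries and most were higher, so this separation is no independent support. For the 125 regions at saline-specific intervals the means were 0.921% ± 0.0301 after cocaine and 1.58% ± 0.0337 after saline. In each of the 173 regions the cocaine values also lay apart from the saline values, as they did in 99.9% of all listed regions. None of the 173 had an adjusted p below 0.05 in the authors' deposited table, where 0.034% of all regions had one, and their adjusted p ranged between 0.135 and 0.146. A fit with limma called 173 of the 173 at an adjusted p below 0.05, but it called 100% of the table, which had been selected on these same libraries.

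The share of higher regions differed with how much of the table region lay inside the interval. Where the whole region lay inside, 46 of 49 (93.9%) were higher after cocaine. Where at least 50% but not all of it did, 85 of 92 (92.4%) were, and where less than 50% did, 22 of 32 (68.8%) were. By width of the interval the shares were 81 of 95 (85.3%) at 200 bp, 38 of 42 (90.5%) at 400 bp and 34 of 36 (94.4%) at 600 bp or more. These counts are descriptions of the list and were not tested.

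With distance from the intervals the direction returned to that of the whole table. Among 142 listed 5hmC regions that did not overlap an interval but lay within 1000 bp of one, 63.4% were higher after cocaine. Beyond that and up to 2000 bp the share was 58.7% of 150, from there to 5000 bp 58.9% of 513, and beyond 50 kb 58.0% of 6361. Around saline-specific intervals the shares were 29.6% of 125 overlapping regions, 51.2% of 166 within 1000 bp and 59.9% of 187 from there to 2000 bp. For either list the share beyond 1000 bp lay between 57.0% and 60.1%.

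**Figure D4:**
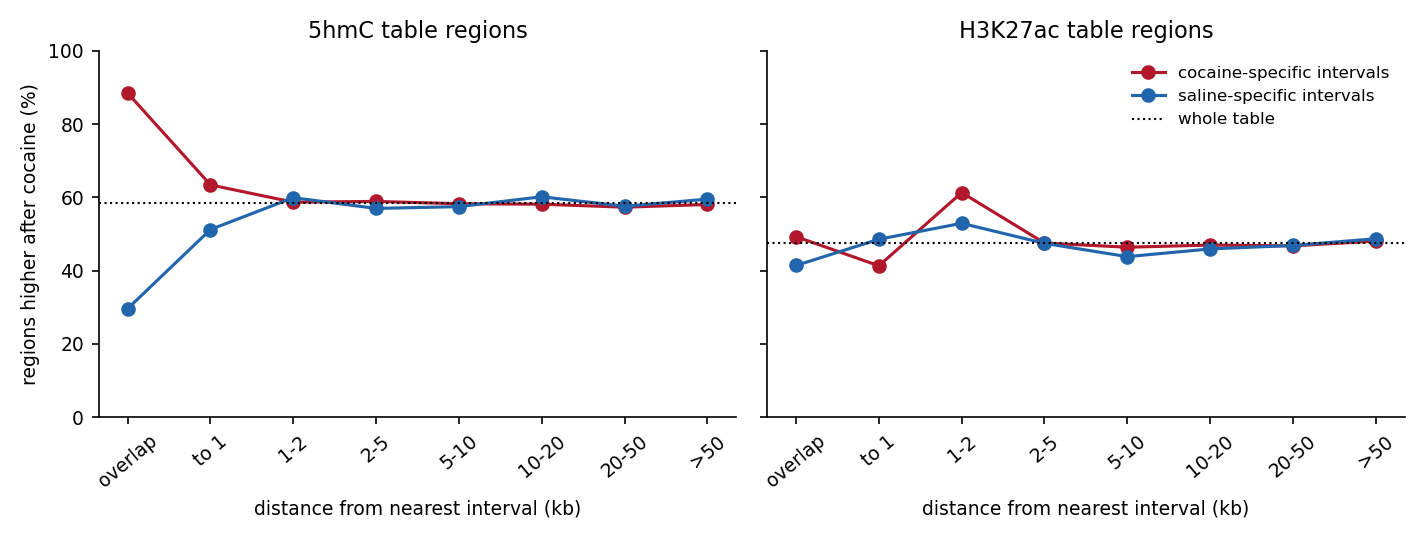
Percent of listed 5hmC regions (left) and H3K27ac regions (right) that were higher after cocaine, by distance in kb from the nearest cocaine-specific (red) or saline-specific (blue) interval; the dotted line is the whole table. For 5hmC the lists part at overlap (88.4% and 29.6%) and lie near the dotted line beyond 1 kb. For H3K27ac the shares at overlap are 49.2% and 41.4%.

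Of the regions higher after cocaine, the lowest deposited p belonged to chr2:18736061-18736380, inside the interval chr2:18735801-18736400. It held 21.1, 23.5 and 20.7 normalised reads in the cocaine libraries, against 8.96, 7.21 and 5.92 in the saline libraries. The mean ± SD was 21.8 ± 1.49 in the cocaine group and 7.36 ± 1.53 in the saline group (n = 3 each). All cocaine libraries exceeded all saline libraries there, but the groups lay apart in 99.9% of all listed 5hmC regions. The deposited log2 fold change was 1.56, with an adjusted p of 0.135 in the authors' deposited table.

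At chr11:89368761-89369060, over the 200 bp interval chr11:89368801-89369000, the cocaine libraries held 15.4, 17.3 and 18.9 normalised reads and the saline libraries 7.17, 5.15 and 4.93. At chr8:119593301-119593620, over chr8:119593401-119593600, they held 14.4, 9.88 and 14.4 in cocaine, against 2.69, 6.18 and 2.96 in saline. In both, the lowest cocaine value exceeded the highest saline value, where the groups lay apart in 99.9% of all listed 5hmC regions. The deposited log2 fold changes were 1.58 and 1.71 in the authors' deposited table.

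Some of the overlapping 5hmC regions had almost no reads in the saline libraries. At chr14:121202661-121202920, which meets the interval chr14:121202801-121203200, the values were 7.69, 7.41 and 8.09 in cocaine, against 0, 1.03 and 0.990 in saline. The region chr5:68439901-68440100, which meets chr5:68440001-68440400, held 4.80, 4.94 and 4.49 in cocaine and was listed at 0 in all 3 saline libraries. Set against a limit of 3 reads summed over the saline libraries, which covers counting error only, its cocaine level was at least 4.88-fold higher. It was the only one of the 173 regions at 0 throughout a group.

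Next by deposited log2 fold change came chr6:106187461-106187660 (4.40), chr19:26870461-26870660 (4.13) and chr5:21834561-21834760 (3.0). Each held between 4.49 and 8.64 normalised reads in every cocaine library and at most 1.03 in any saline library, where 1 read was worth 0.897 to 1.03. These folds thus rest on 1 or 0 reads per saline library.

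In 20 intervals on 12 chromosomes, 200 to 1800 bp wide, the overlapping 5hmC region went against the name of the list. At chr8:108031121-108031340, over chr8:108031201-108031400, the cocaine libraries held 1.92, 4.94 and 1.80 normalised reads, against 8.96, 13.4 and 13.8 in the saline libraries. At chr3:90301841-90302160, over chr3:90302001-90302400, the values were 5.76, 3.70 and 8.99 in cocaine, against 19.7, 18.5 and 14.8 in saline. Every saline library exceeded every cocaine library in both places, where the groups lay apart in 99.9% of all listed 5hmC regions. The deposited log2 fold changes were -2.06 and -1.52 in the authors' deposited table.

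Other lower regions by rule were chr2:105232081-105232340, with means of 5.48 ± 2.70 in cocaine and 16.5 ± 2.63 in saline, and chr4:130481081-130481340, with 7.43 ± 0.251 in cocaine and 18.6 ± 2.87 in saline (SD over 3 libraries per group). At chr6:145450161-145450440 the means were 2.27 ± 0.905 normalised reads in cocaine and 10.3 ± 0.896 in saline. The largest deposited decrease, -2.43 on the log2 scale in the authors' deposited table, was at chr4:43686921-43687120, with 1.33 ± 0.429 in cocaine and 7.15 ± 1.83 in saline. The remaining lower regions by rule, chr16:20368201-20368420 and chr11:106510081-106510280, had deposited log2 fold changes of -2.13 and -2.02. The interval on chromosome 11, chr11:106509801-106511600, was 1800 bp wide.

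H3K27ac offered a mark measured in other libraries. Of the 10049 intervals, 188 (1.87%) overlapped 199 of the 49712 regions of the H3K27ac table. The table lists regions that contain a window with a group difference, not all acetylated chromatin, so an interval without a listed region may still be acetylated. Listed regions covered 3.01% of the span of the 19 chromosomes and 2.14% of the bases of the intervals. Within 10 kb of a listed region lay 2944 intervals (29.3%), and within 20 kb 4948 (49.2%), with a median distance of 20.4 kb. For saline-specific intervals, the shares were 1.10% overlapping, 29.3% within 10 kb and 50% within 20 kb.

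Where they met, 132 of the 188 intervals lay inside an H3K27ac region over their whole width. No H3K27ac region met more than 1 interval. In 74 of the 199 pairs the middle of the interval lay in the central 50% of the region, in 105 nearer its ends and in 20 beyond its edge. The regions had a median length of 1400 bp, against 1200 bp in the whole table. Their median level per kb of length was 370 normalised reads, against 373 in the whole table. The deposited ratio of the group mean to input was 1.70 or more in both treatments in each of the 199 regions, with a median of 4.02 in cocaine and 4.01 in saline. Wider intervals met H3K27ac more often per interval, 1.41% of those of 200 bp and 6.16% of those of 1200 to 2000 bp, but not per base, with 70.4 and 41.0 such intervals per Mb. Of the 44 widest, over 2000 bp, 1 met a listed region.

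In the regions at the intervals, H3K27ac was called about as often as in the whole table. Limma, on log2(normalised reads + 1) with Benjamini-Hochberg adjustment over all 49712 regions, called 23 of the 199 at an adjusted p below 0.05 (11.6%), against 13% of the table. Of these, 5 were higher after cocaine (2.51%, against 3.42% of the table) and 18 were lower (9.05%, against 9.62%). The median log2 fold change was -0.016 at the intervals and -0.018 in the table, and both turned positive after cyclic loess scaling (0.011 at the intervals, 0.0025 in the table). The groups did not overlap in 72 of the 199 regions (36.2%), against 29.1% of the table. Each listed region had been selected on these same H3K27ac libraries, and the limma calls borrow variance across regions. With unmoderated variances 0 of the 199 passed, where 0.00402% of the table did. In that fit 48 of the 199 (24.1%) had an unadjusted p below 0.05, against 17.2% of the table. Without cocaine library 1, and likewise without cocaine library 2, limma called 12 of the 199 (6.03%), against 6.2% and 6.15% of the table. After cyclic loess it called 35 (17.6%), against 15% of the table. These were 15 higher and 20 lower, where 5.5% of the table was called higher and 9.48% lower, so the split between directions moved with the scaling.

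The regions took 0.470%, 0.469% and 0.467% of the table's normalised reads in cocaine libraries 1 to 3, against 0.465%, 0.467% and 0.466% in saline libraries 1 to 3. Means were 0.469% ± 0.00165 after cocaine and 0.466% ± 0.000931 after saline (SD over 3 libraries per group). The cocaine libraries lay just above the saline libraries, with a difference of 0.0098 on the log2 scale and a combined SD of 0.0058. The difference was 0.0021 as the median over regions, relative to the table, and 0.0039 with regions up to 1000 bp away included. Both are smaller than that SD.

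The 5 regions called higher were weakly acetylated, with mean levels of 168 to 257 normalised reads against a median of 538 over the 199. The largest rise was at chr7:146023501-146024500, around the 200 bp interval chr7:146024201-146024400. It held 189.9, 193 and 186 normalised reads in the cocaine libraries, against 149.8, 139 and 154 in the saline libraries. All cocaine values lay above all saline values, and limma gave a log2 fold change of 0.36 ± 0.069 (SE, adjusted p = 1.38e-05). Its level was 1.70 times input in cocaine and 1.78 times in saline, by the authors' deposited ratios, so against input it was not higher after cocaine. The rest of the 5 had the higher ratio in cocaine.

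At chr6:145324101-145325100, around the interval chr6:145324601-145325000, the cocaine libraries held 276, 261 and 264 normalised reads and the saline libraries 248, 217 and 234. The log2 fold change by limma was 0.20 ± 0.059 (SE), with an adjusted p of 0.0101. The regions chr12:83823601-83824700, chr9:85609301-85610300 and chr18:40465001-40466000 rose by similar amounts, with limma log2 fold changes of 0.20, 0.19 and 0.19 and adjusted p of 0.0135, 0.0121 and 0.0158. The groups did not overlap in any of these. All but the chromosome 7 region lost their call without at least 1 library: chromosome 6 without cocaine library 1 or saline library 2, chromosome 12 without cocaine library 2 or 3, and chromosomes 9 and 18 without cocaine library 1 or 2 or saline library 2. After cyclic loess the regions on chromosomes 12 and 18 lost it as well, with adjusted p of 0.0556 and 0.0602. Levels this low were called more often throughout the table. At or under 257 normalised reads, the level of the highest of these 5, limma called 28.4% of the 2614 listed regions, and 15.9% as higher. At the intervals, 20 regions lay in that range, of which 5 were called higher and 1 lower.

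The 18 regions called lower spanned levels of 244 to 1629 normalised reads. The largest fall was at chr16:13867401-13868400, which meets the interval chr16:13868201-13868600. The cocaine libraries held 225, 225 and 256 normalised reads and the saline libraries 277, 277 and 299.7. The log2 fold change by limma was -0.27 ± 0.058 (SE), with an adjusted p of 0.000108, and the groups did not overlap. At the strongest of the 8 lower regions named by rule, chr9:56643801-56645600 around the interval chr9:56645401-56645600, the values were 1479, 1485 and 1507 in cocaine, against 1713, 1560 and 1808 in saline. It lay about 8 times above input by the authors' deposited ratios (8.08 after cocaine, 8.39 after saline), and fell by 0.18 on the log2 scale (limma adjusted p = 3.01e-05).

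The 3200 bp region chr15:76484801-76488000, which meets chr15:76484401-76485000, held 1136, 1115 and 1181 normalised reads in cocaine, against 1312, 1241 and 1333 in saline. Its log2 fold change by limma was -0.18 ± 0.038 (SE), with an adjusted p of 0.000122. At chr7:134396701-134397900 the means were 521 ± 17.6 in cocaine and 601 ± 36.3 in saline (SD over 3 libraries per group). Limma put the log2 fold change at -0.20, with an adjusted p of 0.000179. The other regions among the 8 were chr4:22421201-22422200, chr7:28192701-28194100, chr11:74424101-74425400 and chr11:120227401-120228700. Their limma log2 fold changes were -0.24, -0.21, -0.19 and -0.18, with adjusted p of 0.000983, 0.00267, 0.00247 and 0.00737. By the authors' deposited ratio to input, chr7:28192701-28194100 went the other way, with 1.82 in cocaine and 1.77 in saline. The rest of the 8 had the lower ratio in cocaine. The region on chromosome 4 and both on chromosome 11 lost their call without saline library 3. The call at chr11:74424101-74425400 was also lost without cocaine library 1, and that at chr11:120227401-120228700 without cocaine library 2.

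Saline library 3 stood above the other saline libraries in 15 of the 18 lower regions, and in 106 of all 199. Cocaine library 3 exceeded the average of its 2 fellow cocaine libraries in 15 of the 18, and in 96 of the 199. Without saline library 3, limma called 18 of the 199 (9.05%), against 7.43% of the table. These were 9 higher and 9 lower, where 2.2% of the table was called higher and 5.24% lower. The part of these libraries in the calls was not tested further.

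**Figure D5:**
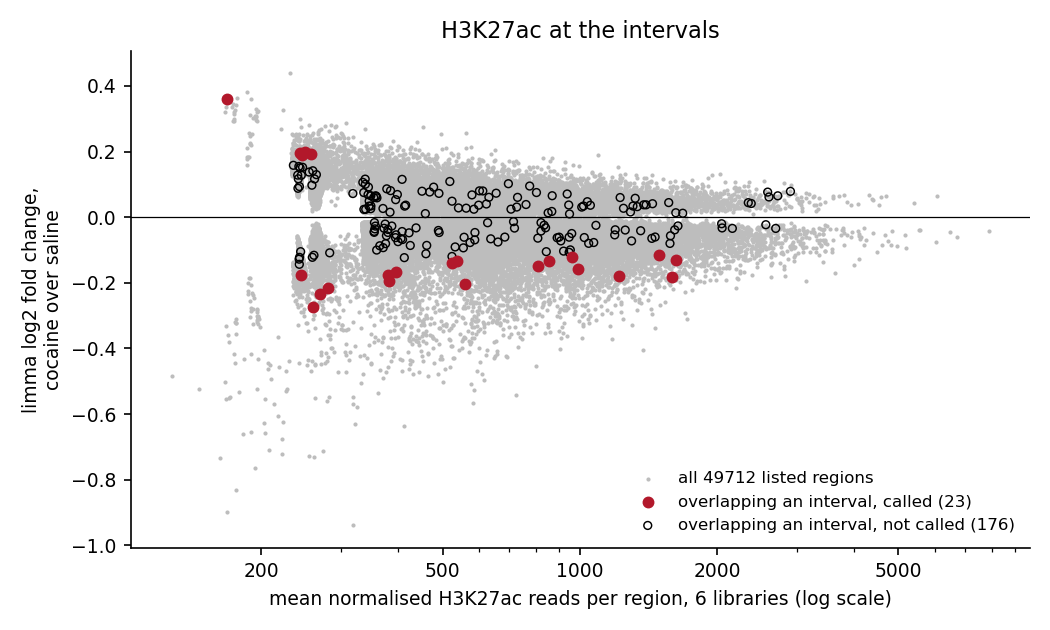
Limma log2 fold change of H3K27ac, cocaine over saline, against the mean normalised reads per region in 6 libraries (log scale). Grey points are all 49712 listed regions, red points the 23 regions at an interval that limma called and open circles the other overlapping regions. The 5 red points above 0 lie at or below 257 reads, and the 18 below 0 reach 1629.

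The regions with the most normalised reads at the intervals did not pass. They were 3600 to 5500 bp long, and reads were not divided by length. By deposited ratio to input, chr9:56643801-56645600, called lower above, exceeded them (8.08 after cocaine, 8.39 after saline). The region with the most reads, chr5:111856001-111861200, contains the 1800 bp interval chr5:111857201-111859000 over its whole width. It held 2922, 3034 and 2973 normalised reads in cocaine, against 2824, 2720 and 2911 in saline. The cocaine values lay just above the saline values, and limma gave a log2 fold change of 0.079 ± 0.032 (SE, adjusted p = 0.0841). It passed without saline library 3 (adjusted p = 0.00512) and after cyclic loess (adjusted p = 1.74e-05). The next, chr18:4588801-4594300 and chr6:91667701-91671300, had limma log2 fold changes of 0.065 and -0.034, with adjusted p of 0.173 and 0.497. After loess the region on chromosome 18 passed (adjusted p = 0.000307).

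H3K27ac near the intervals showed no steady course of direction with distance. Higher regions made up 49.2% of the 199 at the intervals, 41.3% of 230 within 1000 bp and 61.3% of 297 from there to 2000 bp. In the class up to 5000 bp they were 47.5% of 1404. The median level was 538, 506, 445 and 511 normalised reads in these classes, so the class with most higher regions had the lowest level. Around saline-specific intervals the same classes held 41.4%, 48.5%, 52.9% and 47.4% higher regions. Of the 297 regions between 1000 and 2000 bp from a cocaine-specific interval, limma called 12.8%, against 13% of the whole table. These were 20 higher and 18 lower, where 3.42% of the table was called higher and 9.62% lower.

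Of the 10049 intervals, 3 overlapped both a 5hmC and an H3K27ac region, and 9691 overlapped neither. All 3 had the 5hmC region higher after cocaine. At the interval chr16:17816601-17817200, the 5hmC region chr16:17816921-17817160 held 17.3, 16.1 and 21.6 normalised reads in cocaine, against 8.96, 7.21 and 7.90 in saline. There the H3K27ac region chr16:17815701-17817100 held 894, 939 and 973 normalised reads in cocaine, against 1064, 984 and 1082 in saline. H3K27ac was thus lower where 5hmC was higher, and limma gave a log2 fold change of -0.16 ± 0.039 (SE, adjusted p = 0.00175). The call was lost without cocaine library 1 (adjusted p = 0.0811) and with unmoderated variances (adjusted p = 0.29), and held in each of the 5 fits without another library (adjusted p of 8.53e-05 to 0.0294).

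The interval chr17:9015001-9015200 was met, at its start only, by the 5hmC region chr17:9014821-9015020. That region held 4.80, 6.17 and 7.19 normalised reads in cocaine, against 0, 1.03 and 1.97 in saline. H3K27ac over chr17:9013501-9016100 was 961 ± 26.3 in cocaine and 915 ± 36.2 in saline (SD over 3 libraries per group). The limma log2 fold change of H3K27ac was 0.071, with an adjusted p of 0.233, and it passed after cyclic loess (adjusted p = 0.0433). At the interval chr5:107596201-107596400, the 5hmC region chr5:107596101-107596300 held 9.61, 11.1 and 11.7 in cocaine, against 1.79, 3.09 and 5.92 in saline. H3K27ac over chr5:107595601-107596600 was 352 ± 9.10 in cocaine and 344 ± 14.9 in saline, a limma log2 fold change of 0.034 with an adjusted p of 0.635. A second listed H3K27ac region met this interval, starting at chr5:107595901. Its limma log2 fold change had the other sign, -0.046, and it was not called. In the 2 H3K27ac regions given with means, the values of the groups overlapped.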

How the data were processed

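Reads were aligned with Bowtie 0.12.9 to mm9, per the submitters' processing notes. How the authors derived the interval lists was not found in those notes or the files. Per the file headers, diffReps 1.54 produced the H3K27ac table, with windows of 1000 bp moved by 100 bp and a window p-value of at most 0.0001. For the 5hmC table no tool is recorded in the sources used here. For each group the authors deposited a signal that averages the normalised read counts of 3 libraries, and a ratio of that signal to background. The 5hmC log2 fold changes, p-values and their adjusted values are the authors' deposited ones. Each column's 3 values were mapped to libraries by group, and 0 per-library columns were left unused. H3K27ac library numbers follow the file headers. One further library, whose labels name different tissues, was assigned to no group and entered no comparison.

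The 5hmC values were whole multiples of 1 read in 100% of low values, within 0.1 read. Because both tables hold normalised counts, limma 3.58.1 in R 4.3.3 was fitted to log2(value + 1) of a whole table, with a mean-variance trend, robust moderation and Benjamini-Hochberg adjustment, and was tested on simulated data. Overlap meant at least 1 shared bp. Intervals and tables were handled with Python 3.11.15, numpy 2.4.6, pandas 2.3.3 and matplotlib 3.10.9. Regions were named by rule: the 10 widest intervals, the 5 densest stretches of 100 kb, overlapping 5hmC regions with the lowest p or largest fold, overlapping H3K27ac regions that limma called (up to 8 in each direction) or with the highest level, and intervals with both marks. The intervals and rules were chosen with earlier results of these data known. The reference tables used another genome build, so regions carry no gene names and no sequences. Alternatives were other overlaps and distances, pseudocounts, filters, variance moderation, scaling, thresholds and leaving out each library.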

Additional observations from a re-analysis of the deposited data

Results flagged for a closer look

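In 2 of the 173 5hmC regions at the intervals, background was higher than the group mean of either treatment, by the authors' ratios. It is named because those ratios enter no comparison above. At chr14:19650061-19650280 the ratios in the authors' deposited table were 0.86 in cocaine and 0.17 in saline. At chr17:9014821-9015020, one of the places with both marks, they were 0.86 in cocaine and 0.14 in saline. In 19 further regions the background was listed at 0.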

How the results depend on the processing

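The number of intervals was 10434 with no minimum distance, 8882 beyond 5000 bp and 9964 with over 1000 bases between, and merging intervals closer than 200 bp changed no interval. For 5hmC, 153 of 173 regions (88.4%) were higher. Leaving out 1 library could not change this count, because the groups did not overlap in any of the 173. With at least 50% of the region covered it was 131 of 141 (92.9%), within 1000 bp 243 of 315 (77.1%), and with a group mean of at least 10 reads 97 of 112. For H3K27ac, limma called 23 of 199 regions (5 higher, 18 lower), where 3.42% of the table was called higher and 9.62% lower. It called 35 (15 higher) after cyclic loess, 17.6% against 15% of the table. With each region's own variance it called 0 (0 higher, 0 lower), against 0.00402% of the table. Within 1000 bp it called 44 of 429 (10 higher, 34 lower), 10.3% against 13% of the table. At an adjusted p below 0.01 it called 12 (1 higher, 11 lower), 6.03% against 6.56% of the table. The cause of these differences was not tested. After loess 19 of the 23 calls were kept. Leaving out 1 library gave 12 to 25 calls, 2 to 9 higher and 9 to 20 lower. The lowest totals came without cocaine library 1 or 2 (12 each, 2 higher and 10 lower), and the lowest number lower without saline library 3 (9 lower, 9 higher). The share called in the whole table fell too, to 6.2% and 6.15% without cocaine libraries 1 and 2, and to 7.43% without saline library 3. By direction the 2 differed without saline library 3. Higher calls went from 5 to 9 of the 199 regions at the intervals, a shift of few regions that was not tested. In the table the share called higher fell from 3.42% to 2.2%. The difference in H3K27ac share was 0.0098 on the log2 scale, 0.0021 as the median over regions, 0.0039 within 1000 bp (an alternative chosen after seeing the data), and 0.0078 to 0.013 without 1 library. Among regions not called, chr6:91667701-91671300 reversed to 0.0102 after loess and chr5:107595601-107596600 to -0.0018 without saline library 3, with 0.056 as the highest value without 1 library. Of the 19 named H3K27ac regions, 14 had been called, and all 14 lost their call with their own variance. Pseudocounts of 0.5 and 5, a mean of at least 100 and plain moderation changed no call among the 19. No paired analysis was possible because the labels give no shared replicate numbers. Count tests in edgeR and DESeq2 were not run. At 3 to 11 reads per 5hmC region, a single read moves a fold change.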
